A study of Mus musculus with 30 samples.

Results

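The genes described are 10 that were grouped as macrophage genes: Csf1r, Adgre1, Cd68, Mrc1, Cd163, Lyve1, C1qa, C1qb, C1qc and Chit1. The table held RSEM expected counts of 55426 genes from 2 mouse tissues, Achilles tendon and calcaneus, which is the heel bone where the tendon attaches. The 10 genes were taken by name, and each name matched 1 row. The study loaded both tissues through light-driven muscle contraction. All 30 samples carry the genotype label Acta1,Ai32: the Ai32 allele codes for a channelrhodopsin, which opens under light and depolarizes the cell, and Acta1 is the gene of skeletal muscle actin. The labels do not say which cells express the channel, and give no age. In each tissue 3 samples were stimulated for 5 days, 3 were unstimulated controls of the 5-day experiment, 3 were stimulated for 12 days, 3 were unstimulated controls of the 12-day experiment, and 3 were naive at day 0.

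Macrophages are phagocytes that clear dying cells and debris and shape the repair of connective tissue. Their survival depends on the receptor encoded by Csf1r and on its ligands, Csf1 and Il34. Tissues hold resident macrophages, many of which carry the scavenger and mannose receptors Cd163 and Mrc1 and, along vessels, the hyaluronan receptor Lyve1. Bone also holds osteoclasts, the bone-resorbing cells of the same lineage, which express Csf1r and Cd68 as well, and marrow, whose macrophages support red blood cell formation. Lyve1 is shared with lymphatic endothelium. Macrophages are also a main source of C1q, the recognition subunit of the classical complement pathway, whose 3 chains are encoded by C1qa, C1qb and C1qc. Chit1 encodes a chitin-cleaving enzyme, which human macrophages release on activation.

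RefSeq promoter sequences (GRCm38.p6) matched 6 of the 10 members. The 250 bases before the start were searched on both strands for the core of the sites of PU.1 (GAGGAA), the myeloid transcription factor encoded by Spi1, for the M-box of the Mitf family (TCATGTG) and for AP-1 (TGANTCA). Among 32851 mouse promoters of that length, 23.3% held the PU.1 core, 3.25% the M-box and 6.75% the AP-1 letters. The 2 C1q promoters that matched are shown because the levels of their genes ran in parallel in both tissues: each held 1 PU.1 core and 1 M-box. Cd163 is shown because it rose in unstimulated bone at 12 days, where Csf1r did not pass the test, and held none of the 3 motifs. Cd68 is shown because it stood apart from the others in tendon: it held 1 PU.1 core and 2 AP-1 matches. Motif matches are in capitals, each sequence runs 5′ to 3′ on its gene's strand, and only bases outside the GENCODE gene body are printed, which leaves 99 bases for C1qc. A match is a description of these letters and not of binding.
C1qb, minus strand, chr4:136886201-136886450: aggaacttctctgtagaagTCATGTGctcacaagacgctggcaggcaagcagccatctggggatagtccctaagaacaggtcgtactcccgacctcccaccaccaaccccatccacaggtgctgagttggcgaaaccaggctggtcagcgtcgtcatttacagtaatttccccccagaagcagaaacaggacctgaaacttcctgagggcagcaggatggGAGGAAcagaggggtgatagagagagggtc
C1qc, minus strand, chr4:136893066-136893164: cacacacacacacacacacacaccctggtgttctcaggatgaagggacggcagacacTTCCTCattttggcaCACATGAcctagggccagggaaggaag
Cd163, plus strand, chr6:124304401-124304650: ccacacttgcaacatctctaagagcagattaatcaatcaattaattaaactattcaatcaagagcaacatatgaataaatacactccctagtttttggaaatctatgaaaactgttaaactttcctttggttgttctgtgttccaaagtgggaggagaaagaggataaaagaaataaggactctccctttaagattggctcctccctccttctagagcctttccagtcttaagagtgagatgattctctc
Cd68, minus strand, chr11:69666171-69666420: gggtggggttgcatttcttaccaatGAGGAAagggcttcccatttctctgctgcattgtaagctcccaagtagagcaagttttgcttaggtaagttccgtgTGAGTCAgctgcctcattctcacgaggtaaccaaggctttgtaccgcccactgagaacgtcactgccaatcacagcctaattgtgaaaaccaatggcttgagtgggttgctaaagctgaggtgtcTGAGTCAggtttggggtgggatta
Of the other promoters matched, Mrc1 held 3 PU.1 cores and Chit1 held 1 AP-1 match.

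By GENCODE M21 on GRCm38, the 10 members lie on 8 chromosomes. C1qb (4:136880129-136886187), C1qc (4:136889804-136893065) and C1qa (4:136895917-136898803) are neighbours on the minus strand of chromosome 4. The others are Csf1r (18:61100598-61132149), Adgre1 (17:57358691-57483527), Cd68 (11:69664213-69666153), Mrc1 (2:14229392-14332057), Cd163 (6:124304656-124330527), Lyve1 (7:110850607-110863239) and Chit1 (1:134111242-134151540). Csf1r overlaps the annotated genes Hmgxb3 and Mir6983, and Mrc1 holds Mir511, so that without the strand setting of the counting, which is not given in the sources used here, reads in those overlaps cannot be assigned with certainty.

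Total gene counts were 24488997 to 44566322 per tendon library and 19255983 to 35035536 per bone library. Unstimulated bone samples 1 and 2 at 5 days were nearly identical, with a coefficient of biological variation of 2.64% between them against 8.96% to 33.4% in 29 other pairs, and were summed and counted as 1 library, which leaves 29. Levels are counts-per-million values (CPM) over library totals scaled by trimmed mean of M-values (TMM). Naive bone replicate 3 stood apart in tissue makeup, with muscle fibre genes (16 on the list) summing to 154 CPM and erythroid genes (9 on the list) to 40860 CPM, against 8536 to 14610 CPM and 13970 to 15120 CPM in the other naive bone libraries. The labels do not state whether the replicates of a group came from different animals; the p-values therefore reflect the spread among the deposited samples alone, part of which may be technical. Changes are log2 fold changes ± standard error from edgeR's quasi-likelihood test, called where the Benjamini-Hochberg adjusted p over all genes tested was below 0.05. Chit1 had 0 to 12 counts per tendon library and was not tested within tendon, so 9 members were tested there and 10 in bone.

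Of the 10 genes 9 were read in every library of both tissues, while Chit1 was at the edge of detection in tendon. By 2 genes chosen after their values were seen, the tissues matched their labels. Tnmd, which encodes tenomodulin, a marker of tendon cells, averaged 160 CPM in naive tendon and 29.0 CPM in naive bone. Bglap, which encodes osteocalcin, a marker of osteoblasts, averaged 4.34 CPM in naive tendon and 1807 CPM in naive bone. The wider tendon fibroblast list was split: of 11 genes, 6 were called higher and 2 lower in naive tendon than in naive bone. All 11 osteoblast genes were called lower in naive tendon, where 68.4% of all genes were called in either direction. Genes of type I collagen are on both lists. Per kilobase of exon, the scale on which genes can be compared, C1qa (24.0 CPM per kb) and C1qb (23.5 CPM per kb) were the highest members in naive tendon and Chit1 (0.0674 CPM per kb) the lowest. In naive bone C1qa (65.5 CPM per kb), Cd68 (64.2 CPM per kb) and C1qb (61.5 CPM per kb) led, Csf1r followed with 38.2 CPM per kb, and Cd163 (2.38 CPM per kb) and Chit1 (0.299 CPM per kb) were lowest. Lyve1 (3.07 CPM per kb) stood above Adgre1 (2.77 CPM per kb) in naive tendon, whereas in naive bone Adgre1 (8.87 CPM per kb) stood above Lyve1 (3.25 CPM per kb).

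Naive tendon held less RNA of most members than naive bone. Csf1r, the receptor for the macrophage growth factor, was at 35.9, 40.0 and 43.9 CPM in naive tendon, against 197, 216 and 249 CPM in naive bone. Cd68, a lysosomal glycoprotein of phagocytes and osteoclasts, was at 14.4, 14.8 and 11.9 CPM in naive tendon, against 70.5, 79.4 and 92.2 CPM in naive bone. Lyve1 was at 7.75, 8.88 and 10.3 CPM in naive tendon, against 10.1, 6.15 and 12.2 CPM in naive bone. On this scale the tissues were far apart for Csf1r and Cd68 and overlapped for Lyve1. Levels across tissues rest on TMM factors fitted over both tissues. With CPM over plain totals 63 group levels of the members moved by more than 1 SD and 37 by less. Small differences between the tissues, such as that of Lyve1, are therefore bound to this scaling. In a fit over both tissues 8 of 10 members were called lower in tendon, where 68.4% of all 19845 genes tested were called in either direction and 35% as lower. The 8 include Chit1 (-2.14, adjusted p = 0.00416), which had too few counts for a test within tendon. It was tested here only because bone was in the fit, so a lower level in tendon was built into its entry. The differences called ran from -0.64 ± 0.21 for Mrc1 (adjusted p = 0.00929), the mannose receptor, to -2.56 ± 0.27 for Cd68 (adjusted p = 2.43e-08), a 5.89-fold lower level. Csf1r was 5.52-fold lower in tendon (-2.47 ± 0.27, adjusted p = 3.98e-08). Cd163, the receptor for haptoglobin-bound haemoglobin, differed by -0.65 ± 0.30 (adjusted p = 0.0617) and Lyve1 by -0.09 ± 0.35 (adjusted p = 0.843), and neither was called. In bulk tissue, fewer cells of a type and less RNA per cell cannot be told apart, here and below. Other cell types differed between these libraries as well. All 16 muscle fibre genes were called higher in tendon, where they summed to 149400 to 217600 CPM against 154 to 14610 CPM in bone. Of 12 osteoclast genes 11 were called lower, with sums of 140 to 261 CPM against 4506 to 5843 CPM. Only 10 of the 12 had enough counts for a test within tendon. The others entered through bone, so a lower level in tendon was built into their entry. The part of these cell types in the difference was not tested.

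**Figure D1:**
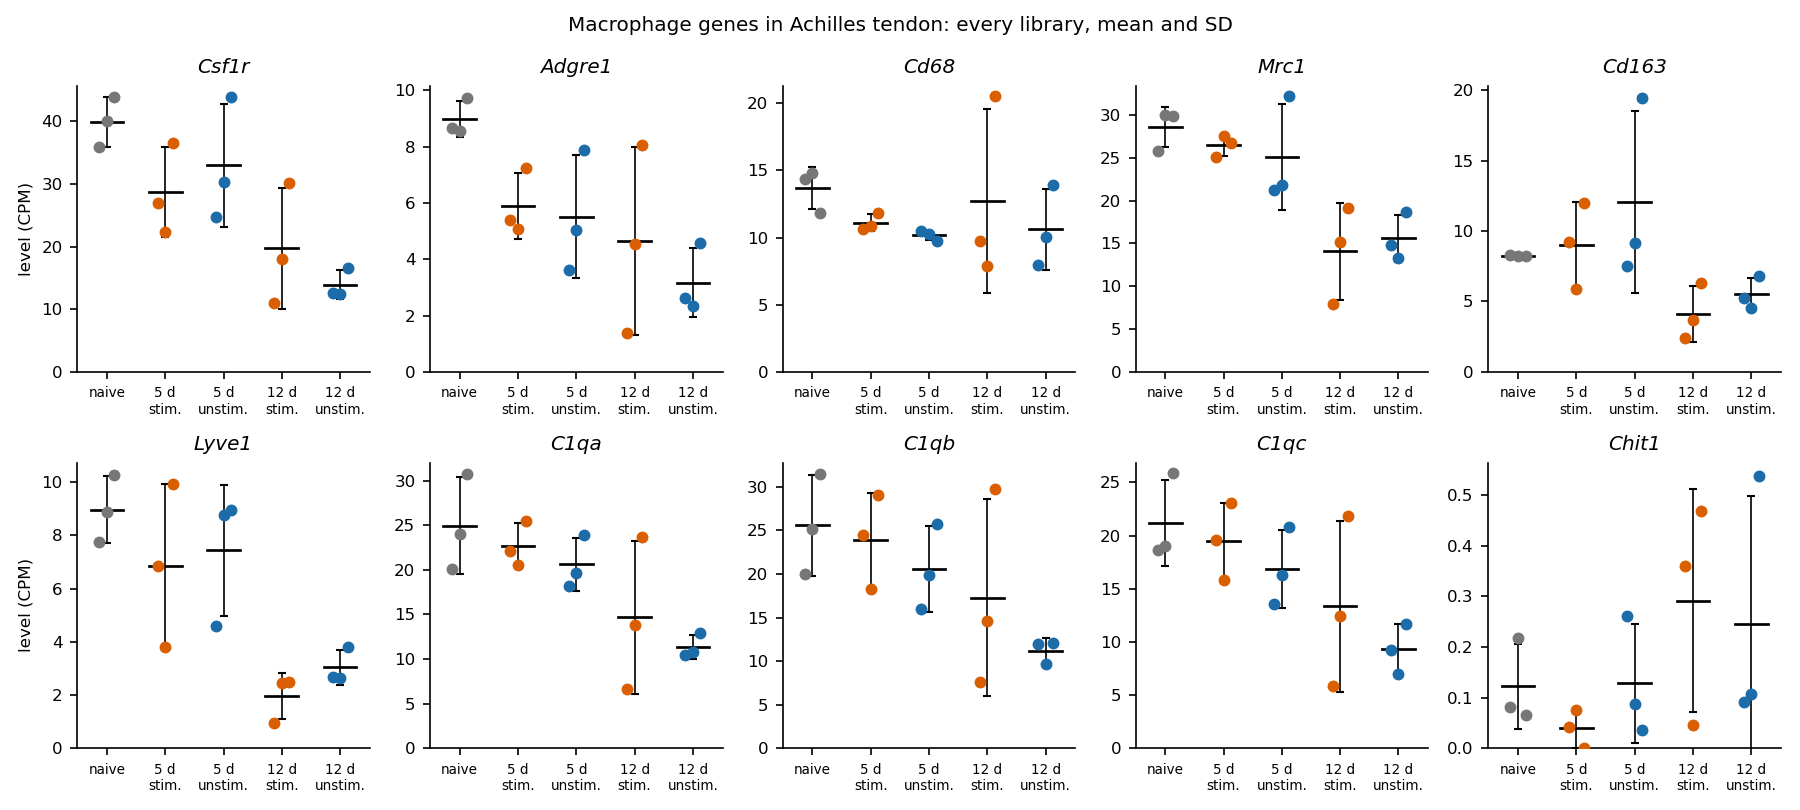
Level of each macrophage gene (CPM, vertical axis from 0) in every tendon library by group (horizontal axis), with the group mean (line) and SD (bar), 3 libraries a group; stim. is stimulated and unstim. unstimulated. Csf1r, Mrc1 and Lyve1 at 12 days lie below every naive library, and the stimulated 12-day libraries are widely spread, from 11 to 30.1 CPM for Csf1r.

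Stimulation was tested directly by comparing stimulated with unstimulated samples of the same day and tissue. In tendon no member was called at either day. At 5 days Csf1r was at 27.1, 22.4 and 36.6 CPM in stimulated tendon, against 24.7, 30.4 and 43.9 CPM in unstimulated tendon, and the groups overlapped. At 12 days it was at 11, 18.0 and 30.1 CPM in stimulated tendon, against 12.6, 12.5 and 16.6 CPM in unstimulated tendon. The stimulated libraries spanned a wide range that took in all the unstimulated ones, and the C1q genes had the same shape: C1qa was at 6.61, 13.8 and 23.7 CPM in stimulated tendon, against 10.5, 10.8 and 12.9 CPM in unstimulated tendon. By edgeR 0 of 9 members were called at 5 days, where 0.0585% of all 17108 genes were, and 0 of 9 at 12 days, where 0.345% were; 0 passed an unadjusted p of 0.05 at either day, and DESeq2 called 0. The Csf1r difference was -0.20 ± 0.30 at 5 days and 0.52 ± 0.32 at 12 days, with an interval of 2 standard errors from -0.11 to 1.15 at 12 days. For C1qb that interval ran from -0.12 to 1.40 and for Lyve1 from -1.39 to 0.21, so that 2-fold differences lay within the intervals of these genes. Whether stimulation acted differently at 12 than at 5 days was tested as well, and 0 of 9 members were called (0% of all genes; 0 at an unadjusted p of 0.05, and 0 by DESeq2).

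In bone edgeR called 1 member, Chit1, lower in stimulated samples at 12 days, and none at 5 days. DESeq2 called 2 members at 12 days. Chit1 had 10, 10 and 10 counts in stimulated bone at 12 days, against 35, 71 and 44 counts in unstimulated bone. In CPM this was 0.397, 0.304 and 0.355 in stimulated bone, against 1.26, 1.52 and 1.495 in unstimulated bone. The groups did not overlap, and of the stimulated libraries 1 lay within and 2 just below the range of naive bone (0.370 to 0.757 CPM), whereas the unstimulated ones lay above it. Chit1 was thus 4.18-fold lower in stimulated bone (-2.06 ± 0.30, adjusted p = 0.0419), where 0.0371% of 18851 genes, 7 in all, were called. The call rested on few counts and on the full set of libraries: it was lost without any 1 of the 6 libraries compared (log2 fold changes of -2.16 to -1.97, adjusted p of 0.0577 to 0.208).

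Lyve1 was at 21.4, 31.4 and 11.9 CPM in stimulated bone at 12 days, against 45.9, 44.0 and 45.7 CPM in unstimulated bone. These groups did not overlap either, and the difference of -1.10 ± 0.34 did not pass the threshold (adjusted p = 0.221). Cd163 was at 24.7, 26.1 and 20.3 CPM in stimulated bone, against 33.4, 38.4 and 26.0 CPM in unstimulated bone, with a difference of -0.50 ± 0.17 (adjusted p = 0.244). At 12 days the other 7 members differed by -0.15 to 0.12. At 5 days edgeR called 0 of 10 members, and 0% of all genes; 1 passed an unadjusted p of 0.05, Cd163 with -0.52 ± 0.19 (adjusted p = 0.546), and DESeq2 called 0. The stimulation effect did not differ between days for any member by edgeR (0 of 10, and 0% of all genes; Chit1 alone had an unadjusted p below 0.05, with -1.42 ± 0.44 and an adjusted p of 0.430; DESeq2 called 0). Between the tissues it was called different for 0 of 10 members at 5 days (0% of 19845 genes) and 0 of 10 at 12 days (0.222% of genes) by edgeR and by DESeq2, with Chit1 at 12 days as the 1 member at an unadjusted p below 0.05.

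Most calls against naive came at 12 days, lower in tendon and, for part of the members, higher in bone. More calls did not always mean larger changes: Cd163 in unstimulated bone was at 1.40 at 5 days and 1.37 at 12 days. By edgeR no member was called between the 2 days. The 4 comparisons with naive in a tissue share the 3 naive libraries and are therefore not independent of each other. At 12 days in unstimulated tendon all 9 tested members lay below naive by their log2 fold change and 7 were called lower, where 18.8% of all genes were called and 10.6% as lower; the median member was at -1.20 and the median gene at -0.03. In stimulated tendon at 12 days 3 were called lower, Csf1r, Mrc1 and Lyve1, where 24.4% of all genes were called and 12.5% as lower, with a median of -0.93 over the members and -0.01 over all genes.

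Of the genes that mark the lineage, Csf1r was at 11, 18.0 and 30.1 CPM in stimulated tendon at 12 days and at 12.6, 12.5 and 16.6 CPM in unstimulated tendon, against 35.9, 40.0 and 43.9 CPM in naive tendon. Both 12-day groups lay wholly below naive. Csf1r fell by 1.02 ± 0.31 on the log2 scale in stimulated tendon (adjusted p = 0.0323) and by 1.54 ± 0.32 in unstimulated tendon (2.90-fold lower, adjusted p = 0.0128). Adgre1, which encodes F4/80, the classic mouse macrophage surface antigen, was at 1.38, 4.53 and 8.05 CPM in stimulated tendon and at 2.62, 2.32 and 4.57 CPM in unstimulated tendon, against 8.65, 8.56 and 9.73 CPM in naive tendon. It fell by 1.51 ± 0.46 in unstimulated tendon (adjusted p = 0.0398), while the difference of -0.93 ± 0.45 in stimulated tendon was not called (adjusted p = 0.141). Cd68 was the exception: it was at 9.73, 7.91 and 20.6 CPM in stimulated tendon and at 7.95, 10.1 and 13.9 CPM in unstimulated tendon, against 14.4, 14.8 and 11.9 CPM in naive tendon. Its groups overlapped, and it was not called, with a difference of -0.11 ± 0.28 in stimulated tendon (adjusted p = 0.806) and -0.38 ± 0.28 in unstimulated tendon (adjusted p = 0.351).

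Of the endocytic receptors, Lyve1 had the largest change among the members in stimulated tendon. It was at 0.962, 2.45 and 2.50 CPM in stimulated tendon at 12 days and at 2.66, 2.65 and 3.81 CPM in unstimulated tendon, against 7.75, 8.88 and 10.3 CPM in naive tendon. Every 12-day library was below every naive one, by 4.48-fold on average in stimulated tendon (-2.16 ± 0.39, adjusted p = 0.00393) and 2.97-fold in unstimulated tendon (-1.57 ± 0.37, adjusted p = 0.0178). Mrc1 was at 7.87, 15.2 and 19.1 CPM in stimulated tendon and at 14.8, 13.3 and 18.7 CPM in unstimulated tendon, against 25.9, 29.98 and 29.9 CPM in naive tendon, and fell by 1.02 ± 0.25 (adjusted p = 0.0136) in stimulated and by 0.89 ± 0.25 (adjusted p = 0.0291) in unstimulated tendon. Cd163 was at 2.40, 3.70 and 6.29 CPM in stimulated tendon and at 5.24, 4.54 and 6.81 CPM in unstimulated tendon, against 8.32, 8.22 and 8.24 CPM in naive tendon. Its groups did not overlap, yet neither difference was called: it was -0.99 ± 0.39 in stimulated tendon (adjusted p = 0.0787) and -0.59 ± 0.38 in unstimulated tendon (adjusted p = 0.283).

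The C1q chains had near-parallel levels. C1qa was at 6.61, 13.8 and 23.7 CPM in stimulated tendon at 12 days and at 10.5, 10.8 and 12.9 CPM in unstimulated tendon, against 20.1, 24.0 and 30.8 CPM in naive tendon. C1qb was at 7.57, 14.6 and 29.7 CPM in stimulated tendon and at 11.9, 9.61 and 12.1 CPM in unstimulated tendon, against 20, 25.2 and 31.5 CPM in naive tendon. C1qc was at 5.83, 12.4 and 21.8 CPM in stimulated tendon and at 9.23, 6.97 and 11.7 CPM in unstimulated tendon, against 18.6, 19.04 and 25.9 CPM in naive tendon. The unstimulated libraries lay below naive for all 3 chains, and the stimulated ones overlapped naive through replicate 3. In unstimulated tendon the chains fell by 1.14 ± 0.32, 1.20 ± 0.38 and 1.20 ± 0.36 (adjusted p = 0.0301, 0.0444 and 0.0385), and in stimulated tendon they differed by -0.76, -0.56 and -0.66, with no call (adjusted p = 0.0960, 0.277 and 0.185). Chit1 was listed with 1 to 12 counts per 12-day tendon library and 2 to 7 per naive library, too few for a test within tendon.

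These tendon calls depended on single libraries. In unstimulated tendon against naive 7 members were called with all libraries, 0 without naive replicate 3 or unstimulated replicate 2, 1 without unstimulated replicate 1, 2 without naive replicate 2, and 4 without unstimulated replicate 3, with log2 fold changes that stayed negative. In stimulated tendon the members summed to 53.7, 92.7 and 162 CPM in the 3 libraries, and 9 members were called lower without replicate 3, the highest. The Csf1r call in stimulated tendon was lost without naive replicate 2 or 3, or stimulated replicate 1 or 2 (log2 fold changes of -1.02 to -0.75), whereas Mrc1 and Lyve1 stayed called without any 1 library. Muscle fibre genes moved with the result: 11 of 16 were called higher and 1 lower in stimulated tendon and 12 of 16 higher in unstimulated tendon, with sums of 277600 to 336200 CPM in stimulated and 296600 to 336700 CPM in unstimulated tendon, against 149400 to 217600 CPM in naive tendon. With the muscle fibre score as a covariate 0 members were called in unstimulated tendon (Csf1r at -0.69, adjusted p = 0.394) and 1 in stimulated tendon, Lyve1 at -1.70 ± 0.37 (adjusted p = 0.0194). Since the muscle sums of 12-day and naive tendon did not overlap, muscle content and group cannot be told apart in these fits. For the refits of this paragraph the share of all genes called is not given here. A change in the members' counts can thus not be told from a change over all genes.

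The other macrophage genes in tendon went the same way where they were called in unstimulated samples. Of 25 genes of the macrophage lineage and phagocytosis 14 fell and none rose in unstimulated tendon at 12 days (median -1.16), among them Axl (-1.14, adjusted p = 0.0153), a receptor for dying cells, Itgam (-1.80, adjusted p = 0.0154), a complement receptor chain, Cx3cr1 (-1.55, adjusted p = 0.0181), the fractalkine receptor, and Fcgr1 (-2.46, adjusted p = 0.0212), a receptor for IgG. In stimulated tendon 3 fell and 2 rose (median -0.47), and Irf8 (0.87, adjusted p = 0.0057), a transcription factor of the lineage, was among those that rose. Of 17 tested genes of resident macrophages the same 7 fell in both groups, and none rose. Fcna, a ficolin, was at -2.15 in stimulated (adjusted p = 0.00477) and -1.91 in unstimulated tendon (adjusted p = 0.0128). Mgl2, a lectin, was at -1.71 in stimulated (adjusted p = 0.00393) and -1.15 in unstimulated tendon (adjusted p = 0.023). Timd4, a receptor for dying cells, was at -2.07 in stimulated (adjusted p = 0.0047) and -1.27 in unstimulated tendon (adjusted p = 0.0287). In unstimulated tendon Pf4 was at -1.56 (adjusted p = 0.0147) and F13a1, a clotting factor chain, at -1.38 (adjusted p = 0.0168). Csf1 fell by 0.51 in stimulated tendon (adjusted p = 0.0262) and by 0.54 in unstimulated tendon (adjusted p = 0.0266), while Il34 was at 0.02 and 0.00 (adjusted p = 0.947 and 0.994). Lymphatic endothelial genes, which share Lyve1, were lower in 3 of 6 in stimulated tendon and 1 of 6 in unstimulated tendon: Prox1, the lymphatic transcription factor and the defining gene of that list, was at -1.30 (adjusted p = 0.0099) in stimulated tendon and -0.79 (adjusted p = 0.0699) in unstimulated tendon. Their sums were 30.6 to 35.7 CPM in stimulated and 28.1 to 49.3 CPM in unstimulated tendon, against 58.1 to 64.3 CPM in naive tendon, and no gene of the list was at 0 in any library. Osteoclast genes were lower in 6 of 10 in stimulated and 5 of 10 in unstimulated tendon, with sums of 101 to 121 CPM and 90.0 to 117 CPM, against 140 to 261 CPM in naive tendon, and 1 or 2 of the 12 genes on the list were at 0 in each 12-day library. Genes of other cell types were lower too: all 5 tested erythroid genes in both groups, 6 of 11 osteoblast genes in stimulated and 8 of 11 in unstimulated tendon, and 6 of 11 tendon fibroblast genes in stimulated and 7 of 11 in unstimulated tendon. The osteoblast and tendon fibroblast lists share genes of type I collagen, which were called lower in both groups and count in both lists. Erythroid sums were 30.1 to 63.5 CPM in stimulated and 35.6 to 42.1 CPM in unstimulated tendon, against 141 to 201 CPM in naive tendon. Tendon fibroblast sums were 5054 to 16700 CPM in stimulated and 5913 to 16060 CPM in unstimulated tendon, against 22860 to 55270 CPM in naive tendon. Scx, a transcription factor of tendon cells, fell by 1.15 in stimulated tendon (adjusted p = 0.00925) and by 1.496 in unstimulated tendon (adjusted p = 0.00943). The part of these lists in the members' change was not tested.

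**Figure D2:**
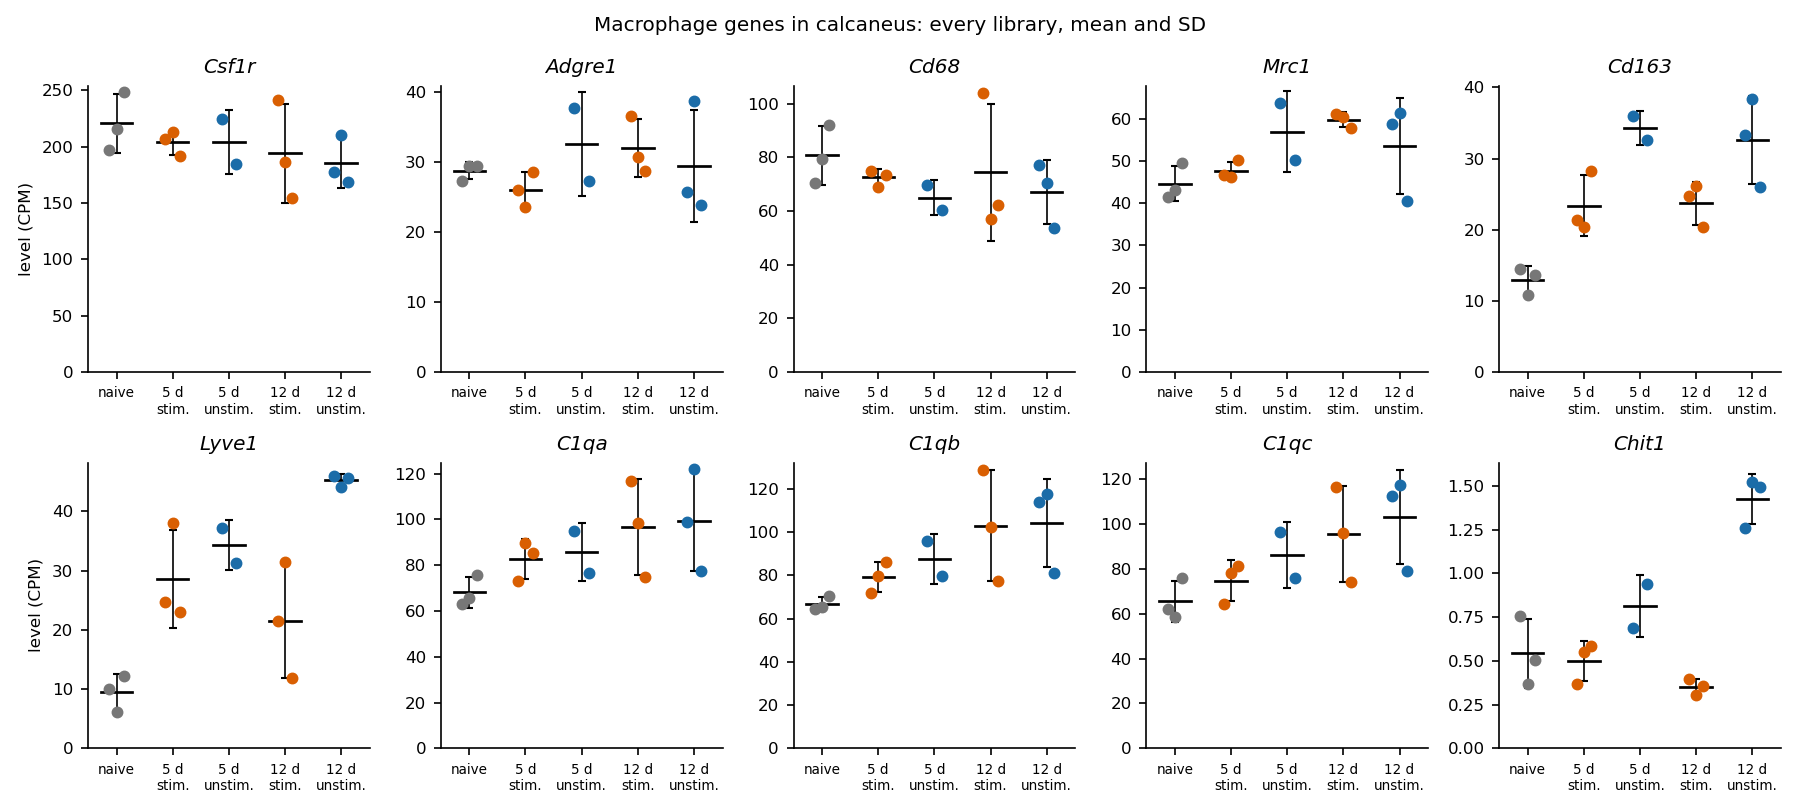
Level of each macrophage gene (CPM, vertical axis from 0) in every calcaneus library by group (horizontal axis), with the group mean (line) and SD (bar), 3 libraries a group and 2 in unstimulated samples at 5 days; stim. is stimulated and unstim. unstimulated. Cd163 and Lyve1 lie above naive in nearly all later libraries, and Chit1 is at or above 1.26 CPM in unstimulated 12-day libraries alone.

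In bone at 12 days Cd163, Lyve1, the C1q chains and Chit1 rose in unstimulated samples, while Csf1r, Adgre1, Cd68 and Mrc1 did not pass the test. In unstimulated bone 6 of 10 members were called higher than naive and none lower, where 21.8% of all genes were called and 10.1% as higher. The median was 0.63 over the members and 0.03 over all genes. In stimulated bone 1 member, Cd163, was called higher, where 4.54% of all genes were called and 2.08% as higher.

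Lyve1 was at 21.4, 31.4 and 11.9 CPM in stimulated bone at 12 days and at 45.9, 44.0 and 45.7 CPM in unstimulated bone, against 10.1, 6.15 and 12.2 CPM in naive bone. The unstimulated libraries lay far above naive and close together, and the stimulated ones overlapped naive through replicate 3. Lyve1 rose by 2.29 ± 0.36, a 4.89-fold change, in unstimulated bone (adjusted p = 0.00266), and its difference of 1.19 ± 0.35 in stimulated bone was not called (adjusted p = 0.0755). Cd163 was at 24.7, 26.1 and 20.3 CPM in stimulated bone and at 33.4, 38.4 and 26.0 CPM in unstimulated bone, against 14.5, 10.8 and 13.6 CPM in naive bone. It lay above naive in every 12-day library, and rose by 0.87 ± 0.18 in stimulated bone (adjusted p = 0.0227) and by 1.37 ± 0.18 in unstimulated bone (2.58-fold, adjusted p = 0.00134). Mrc1 was at 61.3, 60.4 and 57.9 CPM in stimulated bone and at 58.8, 61.5 and 40.5 CPM in unstimulated bone, against 41.4, 43.1 and 49.5 CPM in naive bone. It was not called in either group, at 0.42 ± 0.14 in stimulated bone (adjusted p = 0.105) and 0.30 ± 0.14 in unstimulated bone (adjusted p = 0.154).

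The C1q chains rose together in unstimulated bone at 12 days. C1qb was at 129, 103 and 77.5 CPM in stimulated bone and at 114, 118 and 81.0 CPM in unstimulated bone, against 64.5, 65.4 and 70.7 CPM in naive bone. C1qa and C1qc reached means of 96.7 ± 20.9 and 95.6 ± 21.3 CPM in stimulated bone and 99.5 ± 22.1 and 103 ± 21.0 CPM in unstimulated bone, against 68.2 ± 6.70 and 65.6 ± 9.25 CPM in naive bone (SD, n = 3 each). In unstimulated bone C1qa, C1qb and C1qc rose by 0.59 ± 0.19, 0.68 ± 0.19 and 0.69 ± 0.20 (adjusted p = 0.0480, 0.0237 and 0.0303), and in stimulated bone their differences of 0.51, 0.63 and 0.55 were close in size and not called (adjusted p = 0.139, 0.0737 and 0.130). Chit1 was at 1.26, 1.52 and 1.495 CPM in unstimulated bone, against 0.757, 0.370 and 0.502 CPM in naive bone, and rose by 1.41 ± 0.28 (adjusted p = 0.00548), whereas its difference of -0.65 ± 0.32 in stimulated bone was not called (adjusted p = 0.243).

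Csf1r, Adgre1 and Cd68 stayed near their naive levels in bone. Csf1r was at 242, 187 and 154 CPM in stimulated bone at 12 days and at 177, 210 and 169 CPM in unstimulated bone, against 197, 216 and 249 CPM in naive bone. The groups overlapped, with differences of -0.18 ± 0.17 in stimulated and -0.21 ± 0.17 in unstimulated bone (adjusted p = 0.547 and 0.396). Adgre1 averaged 32.0 ± 4.13 CPM in stimulated and 29.4 ± 8.06 CPM in unstimulated bone, against 28.7 ± 1.21 CPM in naive bone, and Cd68 averaged 74.3 ± 25.6 and 67.1 ± 12.0 CPM, against 80.7 ± 10.9 CPM (SD, n = 3 each). Relative to Csf1r, Cd163 was at 0.125 ± 0.0196 in stimulated and 0.175 ± 0.0184 in unstimulated bone, against 0.0594 ± 0.0124 in naive bone, as ratios of CPM within a library.

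At 5 days the same 2 receptors led in bone. Cd163 was at 21.4, 20.4 and 28.3 CPM in stimulated bone and at 36.0 and 32.6 CPM in unstimulated bone, against 10.8 to 14.5 CPM in naive bone. It rose by 1.40 ± 0.19 in unstimulated bone (adjusted p = 0.0131), the 1 member called there, where 0.435% of all genes were called and 0.382% as higher, and its difference of 0.88 ± 0.18 in stimulated bone was not called (adjusted p = 0.0627). Lyve1 was at 24.8, 38.1 and 23.1 CPM in stimulated bone and at 37.3 and 31.3 CPM in unstimulated bone, all above its naive range of 6.15 to 12.2 CPM, with differences of 1.63 ± 0.35 (adjusted p = 0.0904) and 1.85 ± 0.38 (adjusted p = 0.0726). In stimulated bone at 5 days edgeR called 0 of 10 members, where 0.228% of all genes were called; 2 had an unadjusted p below 0.05, and DESeq2 called 2.

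Some bone calls depended on single libraries. Cd163, Lyve1 and Chit1 in unstimulated bone at 12 days stayed called without any 1 of the 6 libraries, whereas the 3 C1q chains were lost without naive replicate 1 or 2, or unstimulated replicate 1 or 2, which leaves 3 of 6 members. C1qa was also lost without naive replicate 3 (0.70, adjusted p = 0.0538). The Cd163 call in stimulated bone at 12 days was lost without naive replicate 2 or 3, or stimulated replicate 1 or 2 (log2 fold changes of 0.75 to 0.94), and that at 5 days in unstimulated bone without naive replicate 2 or 3 or the summed library (1.28 to 1.47). Marrow genes were lower beside these rises: all 9 erythroid genes, 7 of 11 neutrophil genes, 5 of 7 monocyte genes and all 7 B cell genes were called lower in unstimulated bone at 12 days, with erythroid sums of 4995 to 16670 CPM in stimulated and 3049 to 6193 CPM in unstimulated bone, against 13970 to 40860 CPM in naive bone. With the mean of the erythroid and neutrophil scores as a covariate no gene at all, member or other, was called in unstimulated bone at 12 days. Cd163 was then at 1.304 ± 0.33 (adjusted p = 0.373) and Lyve1 at 1.40 ± 0.60 (adjusted p = 0.701). Since the erythroid sums of unstimulated and naive bone did not overlap, marrow content and group cannot be told apart in this fit.

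Other genes of resident macrophages rose with Cd163 and Lyve1 in bone. Those of the wider lineage split, and those of macrophages that support red cells and handle iron lay below naive. Of 18 resident genes 8 rose and none fell in unstimulated bone at 12 days (median 0.53), led by the folate receptor Folr2 (2.10, adjusted p = 0.00179), the lectin Mgl2 (1.58, adjusted p = 0.00218), Cbr2 (1.32, adjusted p = 0.0027) and the C-type lectin Cd209d (1.49, adjusted p = 0.0071). In stimulated bone 5 of 18 rose and none fell (median 0.61), among them Clec10a (1.37, adjusted p = 0.0146), another lectin, and Gas6 (0.65, adjusted p = 0.0205), a bridging ligand for Axl. Of 25 lineage genes 5 rose and 6 fell in unstimulated bone (median -0.32): Gpnmb (1.98, adjusted p = 0.000209), Axl (0.74, adjusted p = 0.00262) and Cd14 (0.99, adjusted p = 0.00303), the lipopolysaccharide co-receptor, rose, and Irf8 (-1.12, adjusted p = 0.00521) fell. In stimulated bone 1 of 25, Gpnmb (1.55, adjusted p = 0.00146), rose. Of 6 genes of macrophages that support red cells and handle iron, all 6 had log2 fold changes below 0 in both 12-day bone groups. In unstimulated bone 1 of them was called lower and 5 had an unadjusted p below 0.05 (median -0.75). In stimulated bone edgeR called 0, with 0 at an unadjusted p below 0.05 (median -0.12). All 6 other genes of the classical complement pathway rose in unstimulated bone (median 1.18), Serping1, the C1 inhibitor (1.59, adjusted p = 0.00215), and the C1 protease C1s1 (1.40, adjusted p = 0.00266) among them, and 5 of 6 in stimulated bone (median 1.17); in tendon edgeR called 0 of 6 in stimulated samples, with 0 at an unadjusted p below 0.05, and 0 of 6 in unstimulated samples, with 1. The ligands rose in unstimulated bone, Csf1 by 0.59 (adjusted p = 0.00325) and Il34 by 0.69 (adjusted p = 0.00379), and in stimulated bone Il34 rose by 0.63 (adjusted p = 0.0203) while Csf1 at 0.36 was not called (adjusted p = 0.0641). Of 5 tested genes of the chitinase family other than Chit1 edgeR called 0 in either 12-day bone group, with 0 at an unadjusted p below 0.05.

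Beside the members that osteoclasts share, osteoclast genes fell: 2 of 12 were called lower in stimulated and 7 of 12 in unstimulated bone at 12 days, with sums of 2622 to 4512 CPM and 2735 to 3456 CPM, against 4506 to 5843 CPM in naive bone. Siglec15, an osteoclast receptor, was at -1.31 in stimulated bone (adjusted p = 0.0293) and -1.33 in unstimulated bone (adjusted p = 0.00812). Beside Lyve1, 1 of 6 lymphatic genes, Ccl21a, a lymphatic chemokine, was higher in stimulated bone (2.27, adjusted p = 0.0215), and it was also the 1 called in unstimulated bone (2.34, adjusted p = 0.00518), while Sema3d was lower in stimulated bone (-0.65, adjusted p = 0.0126). Prox1 was at 0.99 (adjusted p = 0.105) in stimulated and 0.88 (adjusted p = 0.0815) in unstimulated bone, with means of 2.68 ± 0.56 and 2.44 ± 0.33 CPM, against 1.33 ± 0.79 CPM in naive bone (SD, n = 3 each). Mast cell genes rose as well, 2 of 5 in stimulated and 4 of 5 in unstimulated bone, with sums of 16.95 to 42.7 CPM and 29.5 to 50.5 CPM, against 7.82 to 14.9 CPM in naive bone. Of 7 adipocyte genes 5 rose in unstimulated bone (median 0.94), and edgeR called 0 in stimulated bone, with 1 at an unadjusted p below 0.05; their sums were 1030 to 1065 CPM in stimulated and 1258 to 1618 CPM in unstimulated bone, against 550 to 1119 CPM in naive bone. Of 11 tendon fibroblast genes 3 rose and 2 fell in stimulated bone, and 8 rose and 2 fell in unstimulated bone. Of 11 osteoblast genes 7 fell in stimulated and 6 in unstimulated bone, with sums of 45950 to 55610 CPM and 53390 to 60060 CPM, against 84440 to 92380 CPM in naive bone. Genes of type I collagen are on this list and on the tendon fibroblast list, and count in both. The part of these lists in the members' change was not tested.

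**Figure D3:**
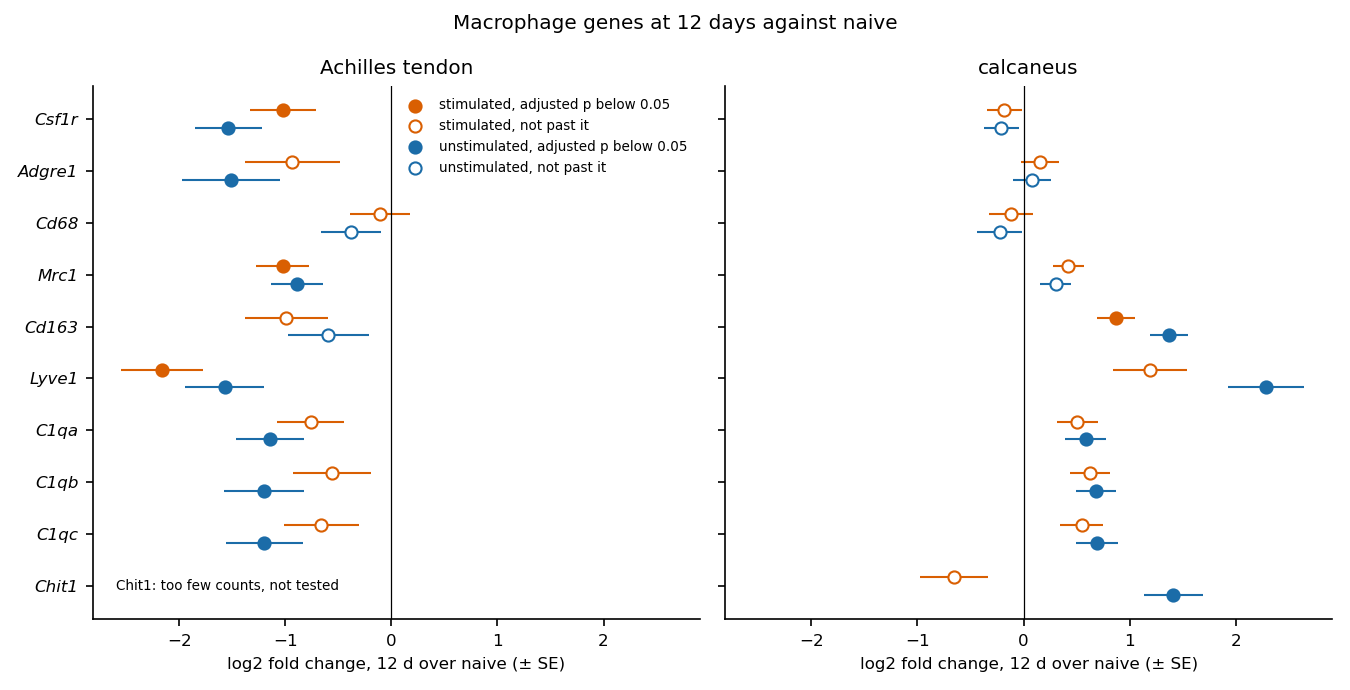
Log2 fold change against naive (horizontal axis, ± standard error) of each macrophage gene (vertical axis) at 12 days, tendon on the left and calcaneus on the right; filled points had an adjusted p below 0.05. Every tendon point lies below 0, from -0.11 for Cd68 to -2.16 for Lyve1 in stimulated samples, whereas in bone Lyve1 reaches 2.29 and Cd163 1.37 in unstimulated samples.

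The difference between the tissues was tested directly, in a fit over all 29 libraries. For unstimulated samples at 12 days the change from naive was called lower in tendon than in bone for 8 of 10 members, where 16% of 19845 genes were called and 9.39% as lower. Lyve1 differed most, by -3.80 ± 0.52 (adjusted p = 0.000215), a 14.0-fold difference between the changes, followed by Cd163 with -1.90 ± 0.44 (adjusted p = 0.00546), which was not called within tendon. The C1q chains differed by -1.67 to -1.83, and Csf1r by -1.27 ± 0.37 (adjusted p = 0.0212). Cd68 (-0.10 ± 0.37, adjusted p = 0.907) and Chit1 (-0.34 ± 0.94, adjusted p = 0.866) were not called. For stimulated samples 4 of 10 were called lower, where 9.42% of genes were called and 6% as lower: Lyve1 (-3.32 ± 0.54, adjusted p = 0.0013), Cd163 (-1.84 ± 0.44, adjusted p = 0.0125), Mrc1 (-1.43 ± 0.30, adjusted p = 0.0058) and C1qa (-1.25 ± 0.39, adjusted p = 0.0440). Without stimulated tendon replicate 3 that count was 8. At 5 days edgeR called 0 of 10 in unstimulated samples (0.0101% of genes) and 0 of 10 in stimulated samples (0.0756% of genes); in each 1 member, Lyve1, passed an unadjusted p of 0.05, with -2.11 ± 0.52 (adjusted p = 0.121) in unstimulated and -1.97 ± 0.50 (adjusted p = 0.0880) in stimulated samples, and DESeq2 called 1.

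Between 5 and 12 days no member passed the test in either tissue. In unstimulated tendon Csf1r was at 12.6, 12.5 and 16.6 CPM at 12 days, against 24.7, 30.4 and 43.9 CPM at 5 days, and Lyve1 at 2.66, 2.65 and 3.81 CPM at 12 days, against 4.599, 8.75 and 8.96 CPM at 5 days. These groups did not overlap, with Csf1r at -1.26 ± 0.32 (adjusted p = 0.256) and Lyve1 at -1.30 ± 0.38 (adjusted p = 0.293). By edgeR 0 of 9 members were called, where 0.0234% of all genes were, and DESeq2 called 1. An unadjusted p below 0.05 was found for 7 of 9 members and for 2097 of all 17108 genes. In stimulated tendon 0 of 9 were called by edgeR, where 0.187% of genes were, 3 had an unadjusted p below 0.05 and DESeq2 called 2; Lyve1 was at -1.78 ± 0.39 (adjusted p = 0.0742). In bone edgeR and DESeq2 called 0 of 10 members, and edgeR 0% of all genes, in unstimulated samples, where Chit1 alone had an unadjusted p below 0.05 (0.87 ± 0.30, adjusted p = 0.276), and likewise in stimulated samples, where none had. At 5 days no member differed from naive in tendon by edgeR: 0 of 9 in unstimulated tendon, where 0.0351% of genes were called, and 0 of 9 in stimulated tendon, where 2.29% were, with 0 at an unadjusted p of 0.05 and 0 by DESeq2 in both.

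Ordered by mean level within a tissue, most neighbouring groups overlapped, so that the order was loose. In tendon naive had the highest mean for 8 of the 10 members, the exceptions being Cd163, highest in unstimulated samples at 5 days (12.1 ± 6.46 CPM), and Chit1. Lyve1 ranged 4.55-fold between its highest and lowest tendon group and 4.76-fold between its highest and lowest bone group, whereas Csf1r ranged 2.87-fold in tendon and 1.19-fold in bone. For each member at most 1 of the 4 neighbouring pairs of groups in a tissue was free of overlap.

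The members' levels ran together across tendon libraries, and less so across bone libraries. Across the 15 tendon libraries, which share depth and muscle content as well as group, the median correlation of log2 CPM over 36 pairs of members was 0.862, from 0.208 for Cd68 with Lyve1 to 0.983 for C1qb with C1qc. With group means removed the median was 0.851. Across the 14 bone libraries the median over 45 pairs was 0.361 and the range -0.356 to 0.976, and with group means removed the median was 0.617 and the range -0.23 to 0.958. The bone pairs include those with Chit1, from -0.279 to 0.569, which the tendon pairs leave out. The medians of the tissues thus cover unlike sets, and Chit1 made part of the gap. With group means removed Chit1 ran from -0.23 with Mrc1 to 0.347 with Cd163, and was at -0.146 with Csf1r. With the groups included, the C1q chains were at 0.959 to 0.976 with each other, Cd163 with Lyve1 at 0.868 and Csf1r with Cd68 at 0.755. Csf1r with Cd163 was at -0.247. The C1q chains were not separate from the receptors: Mrc1 was at 0.782 to 0.806 with them, Cd163 at 0.706 to 0.744 and Lyve1 at 0.624 to 0.658. With group means removed Cd163 with Lyve1 was at 0.351 and Csf1r with Cd163 at 0.338. These are descriptions over libraries that include the groups compared above, with no test.

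**Figure D4:**
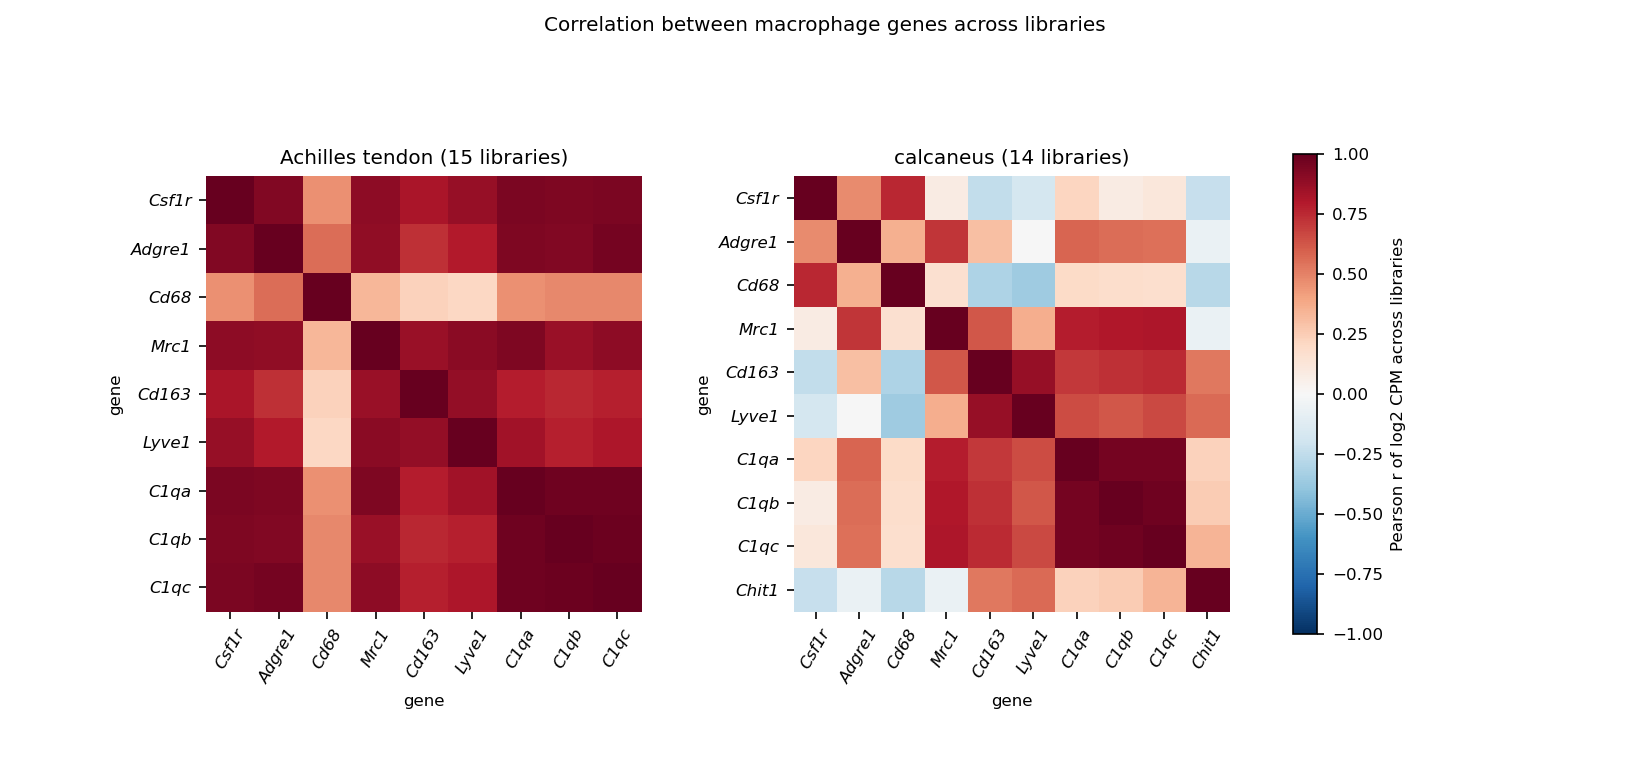
Pearson correlation of log2 CPM between each pair of macrophage genes (both axes) across 15 tendon libraries on the left and 14 calcaneus libraries on the right, on a colour scale from -1 to 1. In tendon Cd68 stands apart from the rest, with 0.208 against Lyve1, and in bone Csf1r and Cd68 (0.755) part from Cd163 and Lyve1 (0.868).

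Within a library the C1q chains kept nearly fixed proportions. C1qa over C1qb averaged 0.873 ± 0.0759 to 1.02 ± 0.13 over the tendon groups and 0.944 ± 0.0337 to 1.04 ± 0.07 over the bone groups. Lyve1 over Mrc1, both in CPM, averaged 0.138 ± 0.0208 in stimulated and 0.194 ± 0.0129 in unstimulated tendon at 12 days, against 0.313 ± 0.0265 in naive tendon, and 0.358 ± 0.157 in stimulated and 0.875 ± 0.221 in unstimulated bone, against 0.211 ± 0.0594 in naive bone (SD, n = 3 each). Cd68 over Csf1r averaged 0.669 ± 0.223 in stimulated and 0.757 ± 0.112 in unstimulated tendon at 12 days, against 0.347 ± 0.0685 in naive tendon, whereas the group means of bone lay between 0.319 and 0.379.

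Among other genes, those most like the members' mean standardized log2 CPM were Ncf1, Itgb2, Hpgds, Itgam, Laptm5, Pirb, Cd33 and Lyz2 in tendon (Pearson r of 0.960 to 0.973 over 15 libraries and 12838 genes), and Cd164, Sowahc, Abhd12, Selenop, Cpq, Pcbd1, Hfe and Fbln5 in bone (0.835 to 0.904 over 14 libraries and 13747 genes). By the lower of the values in the 2 tissues, Snx1, Tmem106a, Selenop, F13a1 and P2rx4 led (0.789 to 0.804 over 12563 genes).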

How the data were processed

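RNA of 30 mouse samples, 15 of Achilles tendon and 15 of calcaneus, was sequenced as poly-A libraries after extraction with a PureLink kit, per the labels' protocols. The authors deposited 1 table of RSEM expected counts per gene; the submitters' processing notes name cutadapt 2.3, FastQC 0.11.8, STAR 2.7.8a, RSEM 1.3.3, MultiQC 1.7 and the build GRCm38. For the annotation and the strandedness of the counting, no value is given in the sources used here. The deposited expected counts held 0 values that were not whole, so rounding changed none.

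Samples were grouped by the treatment and tissue labels; some titles of stimulated samples also carry the word control, and the treatment label was followed. The near-identical pair in unstimulated bone at 5 days (BCV 2.64%) was summed, which gave 29 libraries. Genes were kept by edgeR's filterByExpr (minimum count 10, minimum total 15), scaled by TMM and tested by edgeR 4.0.16's robust quasi-likelihood test in R 4.3.3, in 1 fit per tissue and 1 over both, with Benjamini-Hochberg adjustment over all genes tested and a threshold of 0.05. The 25 comparisons are those of stimulation, day and tissue. A standard error is the absolute log2 fold change over the root of the F statistic, and intervals are 2 standard errors on each side. Levels are CPM over TMM-scaled totals, and per kilobase values use the union of exons in GENCODE M21, which matched 99.5% of IDs. The procedure was tested on simulated data. Totals per library limit the precision of low genes, above all Chit1.

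The alternatives were DESeq2 1.42.0, its size factors in edgeR, no count filter, fits of the libraries compared alone, muscle or marrow scores as a covariate, a replicate block, the pair kept apart, and each library left out. Besides the 10 members, named genes are, from each other list and comparison, up to 4 called genes with the smallest adjusted p, with Csf1 and Il34 always; Prox1 where not called, Tnmd and Bglap were chosen after their values were seen. Genes most like the members were taken by Pearson's r among genes with a mean of at least 1 CPM. The members and lists were chosen with earlier results of these data known. Other data in the table were not used here. The values of 1 gene that the naming rule covers are not reported here.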

Additional observations from a re-analysis of the deposited data

Results flagged for a closer look

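The tests of the difference between tissues in the change from naive at 12 days, from 1 edgeR fit over both tissues, put these members forward, and each value is the log2 change in tendon minus that in bone. In stimulated samples Lyve1 differed by -3.32, Cd163 by -1.84, Mrc1 by -1.43 and C1qa by -1.25 (adjusted p of 0.0013 to 0.0440). In unstimulated samples Lyve1 differed by -3.80, Cd163 by -1.90, C1qc by -1.83, C1qb by -1.83, C1qa by -1.67, Adgre1 by -1.53, Csf1r by -1.27 and Mrc1 by -1.14 (adjusted p of 0.000215 to 0.0384). Both sets rest on the same naive libraries. Without any 1 of the 12 libraries, Mrc1, Cd163 and Lyve1 stayed past the threshold in both sets and C1qa, C1qb and C1qc in the unstimulated set, whereas C1qa in the stimulated set was lost in 9 of the 12 fits, Adgre1 in 9 and Csf1r in 3. Groups hold 2 or 3 libraries, too few to test a single library for standing apart.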

How the results depend on the processing

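No result reversed under any alternative run. The members' log2 fold changes kept direction and side of the threshold in 3138 cases, lost a call in 120, gained one in 41 and moved without a call in 187. With CPM over plain totals 63 group levels of the members moved by more than 1 SD and 37 by less. The counts of members called in naive tendon against naive bone (8) and in the unstimulated difference between tissues at 12 days (8) stayed within 1.5 times under every alternative run. DESeq2 called 3 in stimulated bone at 12 days against naive (edgeR 1), 2 in stimulated against unstimulated bone at 12 days (1), 2 in stimulated (0) and 2 in unstimulated bone (1) at 5 days against naive, 2 in stimulated (0) and 1 in unstimulated tendon (0) at 12 against 5 days, and 1 in each 5-day difference between tissues (0). With the muscle score as a covariate the count was 1 in stimulated tendon (3) and 0 in unstimulated tendon (7) at 12 days, 0 in stimulated bone at 12 days (1) and 0 in unstimulated bone at 5 days (1), all against naive, and 0 in stimulated against unstimulated bone at 12 days. With the marrow score it was 0 in stimulated and 0 in unstimulated bone (6) at 12 days against naive and 0 between them. Fits of the libraries compared alone gave 1 in stimulated tendon and 0 in stimulated bone at 12 days, 0 in unstimulated bone at 5 days, all against naive, and 0 in stimulated against unstimulated bone at 12 days. Without the count filter 2 were called in unstimulated tendon at 12 days, and with DESeq2's size factors 0 in stimulated against unstimulated bone at 12 days. With the near-identical pair kept apart the counts were 2 in stimulated bone at 12 days, 1 in stimulated and 2 in unstimulated bone at 5 days against naive, and 0 in stimulated against unstimulated bone at 12 days. The cause of these moves was not tested.

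Leaving out 1 library gave 2 to 9 in stimulated tendon and 0 to 5 in unstimulated tendon at 12 days, 0 to 3 in stimulated and 3 to 7 in unstimulated bone at 12 days, 0 to 1 in unstimulated bone at 5 days, all against naive, 0 in all 6 fits of stimulated against unstimulated bone at 12 days, 0 to 1 in stimulated tendon at 12 against 5 days, 3 to 8 in the stimulated difference between tissues at 12 days and 0 to 1 in each at 5 days. Same-numbered samples showed no clear pairing: of 51 pairs 13 had a correlation of deviations over 0.1, and 16 fitted best with their own number. With deviations from means of so few samples this check cannot exclude pairing, and the labels do not state it. With the replicate block the counts were 6 in stimulated tendon at 12 days and 2 in unstimulated bone at 5 days against naive, and 0 in stimulated against unstimulated bone at 12 days. The counts of members in these 2 paragraphs are given without the share of all genes called in the same fits. Few counts limit Chit1, and groups of 2 or 3 libraries limit all results.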
